A study of Mus musculus with 36 samples.

Results

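Mesenchymal transcription factors were followed from fibroblasts to pluripotent lines in Zfp266 knockout (KO) and wild-type (WT) mouse cells. The set was a fixed list of 10 genes (Snai1, Snai2, Zeb1, Zeb2, Twist1, Twist2, Prrx1, Prrx2, Runx1 and Tcf21), found by gene symbol among the 21442 genes of the count table, and all 10 were present. The study asked how loss of Zfp266, a zinc finger gene, changes reprogramming to induced pluripotent stem cells (iPSCs). RNA was sequenced in 36 libraries, with 3 for each of 12 groups made of 6 stages and 2 genotypes.

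The mouse embryonic fibroblasts (MEFs) were passage 2 cells of strain 129, taken from mid-gestation embryos and harvested 96 h after lentivirus carried in a non-targeting guide (WT) or a Zfp266 guide (KO). All of these cells, WT included, expressed Cas9 and carried a doxycycline-inducible cassette of Myc, Klf4, Oct4 and Sox2 linked to mOrange, and a Nanog-GFP reporter. They came from chimeric embryos, which also hold host cells. Cells at days 3, 5 and 7 of reprogramming (D3, D5 and D7) were transduced 24 h before doxycycline at 300 ng/ml and vitamin C at 10 ug/ml were added, and mOrange-positive cells were sorted, since unmodified 129 MEFs had been mixed in. Each KO library up to D7 was therefore a population of edited cells and not a clone. The iPSCs were single-cell clones from colonies lifted at day 15, with 3 clones for each genotype. KO embryonic stem cells (ESCs) were 3 clones, while WT ESCs were 3 samples of the 1 parental line, so their spread holds no difference between clones. Where nothing says that libraries came from separate cultures, a p-value measures the spread between libraries only.

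These factors drive or maintain the mesenchymal state. Snail (Snai1, Snai2) and Zeb (Zeb1, Zeb2) proteins are zinc finger repressors that bind E-boxes and silence epithelial genes such as Cdh1, which encodes E-cadherin. Twist1, Twist2 and Tcf21 are basic helix-loop-helix factors that act as dimers with the E proteins (Tcf3, Tcf4, Tcf12) and are opposed by Id proteins. Prrx1 and Prrx2 are homeodomain factors of embryonic mesenchyme, and Runx1 is a Runt domain factor, best known in blood, that pairs with Cbfb. When fibroblasts are reprogrammed they pass through a mesenchymal-to-epithelial transition, in which such factors are lost and epithelial junction genes appear.

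Of the 10 members, 8 had an upstream window in the RefSeq table of GRCm38.p6, with 12 windows in all. Windows were not used for Snai2 and Zeb1. The E-box CAGGTG, which Snail and Zeb proteins bind, was searched on both strands in the 250 bases before each start. It was found in 2 of the 12 member windows and in 17.2% of all 32851 windows of this length. The windows printed are those of Snai1, Twist1, Zeb2 and Runx1 that touch no annotated exon, and are shown as the upstream sequence of genes that fell strongly at D3 (Snai1, Twist1), fell less (Zeb2) or were not called (Runx1). Bases are in lower case, 5′ to 3′ on the gene's strand, and capitals mark the E-box.
Snai1, chr2:167537945-167538194, plus strand: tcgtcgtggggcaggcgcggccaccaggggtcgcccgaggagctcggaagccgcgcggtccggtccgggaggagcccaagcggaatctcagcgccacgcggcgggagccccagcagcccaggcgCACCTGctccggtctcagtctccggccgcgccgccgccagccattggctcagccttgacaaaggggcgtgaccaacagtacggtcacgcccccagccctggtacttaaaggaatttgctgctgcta
Twist1, chr12:33957421-33957670, plus strand: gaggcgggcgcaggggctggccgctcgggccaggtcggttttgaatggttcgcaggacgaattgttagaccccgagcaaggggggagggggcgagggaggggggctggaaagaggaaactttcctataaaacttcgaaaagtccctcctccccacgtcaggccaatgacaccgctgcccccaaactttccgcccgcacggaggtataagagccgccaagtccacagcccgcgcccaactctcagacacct
Zeb2, chr2:45117443-45117692, minus strand: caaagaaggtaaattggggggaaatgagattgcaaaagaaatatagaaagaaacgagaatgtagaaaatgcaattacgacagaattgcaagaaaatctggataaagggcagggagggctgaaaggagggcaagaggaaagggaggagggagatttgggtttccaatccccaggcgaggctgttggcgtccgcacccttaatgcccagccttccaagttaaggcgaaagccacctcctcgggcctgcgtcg
Runx1, chr16:92697330-92697579, minus strand: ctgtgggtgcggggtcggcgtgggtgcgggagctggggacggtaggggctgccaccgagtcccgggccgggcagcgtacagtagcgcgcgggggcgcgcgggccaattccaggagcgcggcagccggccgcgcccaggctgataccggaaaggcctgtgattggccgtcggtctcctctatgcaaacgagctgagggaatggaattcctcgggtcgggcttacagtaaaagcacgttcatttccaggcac
The Snai1 window holds the E-box in its reverse form, with its first base 126 bases before the start. The Runx1 window shown belongs to the proximal start and holds none, while the window of the distal start has an E-box 136 bases before it. A match is a description of the letters and not evidence of binding.

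Expression of cell type markers followed the stage names. The summed level of 6 fibroblast markers in WT was 296878 to 307335 normalised counts in MEFs and 21793 to 29343 at D3. It was 16557 to 19743 at D5, 19738 to 27430.5 at D7 and 56.1 to 93.0 in iPSCs. The sum of 6 pluripotency markers ran the other way, from 19.7 to 30.8 in WT MEFs to 93690.3 to 109636 in WT iPSCs. Normalised counts are read counts divided by a size factor for each library. The Zfp266 transcript was present in every library. In KO over WT it had log2FC 0.32 at D3 (DESeq2 FDR 0.00883) and -0.39 in iPSCs (FDR 9.95e-06), and it did not pass FDR 0.05 at the other 4 stages. Guide-directed indels need not change a transcript's count, so these values do not check the labels of edited pools. MEF KO replicate 3 stood apart, with a muscle marker sum of 2532 against 5473 to 6374 in the other MEF libraries, and 0 members differed between KO and WT MEFs by DESeq2 with or without it. Library totals ran from 19224103 to 39610939 reads. In bulk RNA, fewer cells of a type and less RNA per cell cannot be told apart.

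Overlapping genes bear on the counts of some members. Of all 75-base words of Twist2 transcripts, 45.3% also occur in Gm29100, a gene on the opposite strand. Zeb2 shared 1.49% with Zeb2os and Zeb1 1.16% with Gm10125. The kit marked strand, but whether counting used it was not stated, so the Twist2 level is uncertain. The remaining members shared no such word with another gene, except Runx1 with 0.263%.

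WT MEFs expressed all 10 factors. Because longer transcripts yield more reads, levels of different genes are compared here as normalised counts per kb of merged exon. Twist1 was highest at 1734 ± 130.2 per kb (mean ± SD, n = 3, as for all such values below), followed by Prrx1 at 1399.8 ± 64.9 and Snai1 at 1057 ± 26.6. Twist2, Prrx2 and Snai2 formed a middle range of 672 ± 13.7, 607 ± 51.0 and 518 ± 60.4 per kb, in which the Prrx2 and Snai2 libraries overlapped. Zeb1 stood at 247 ± 3.62, Zeb2 at 109 ± 3.51 and Runx1 at 105 ± 5.11, and the last 2 overlapped. Tcf21, a factor of visceral and epicardial mesenchyme, was lowest at 26.3 ± 3.09. With the length of the longest transcript instead, Prrx1 came before Twist1, so the leading place depends on the length used.

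**Figure D1:**
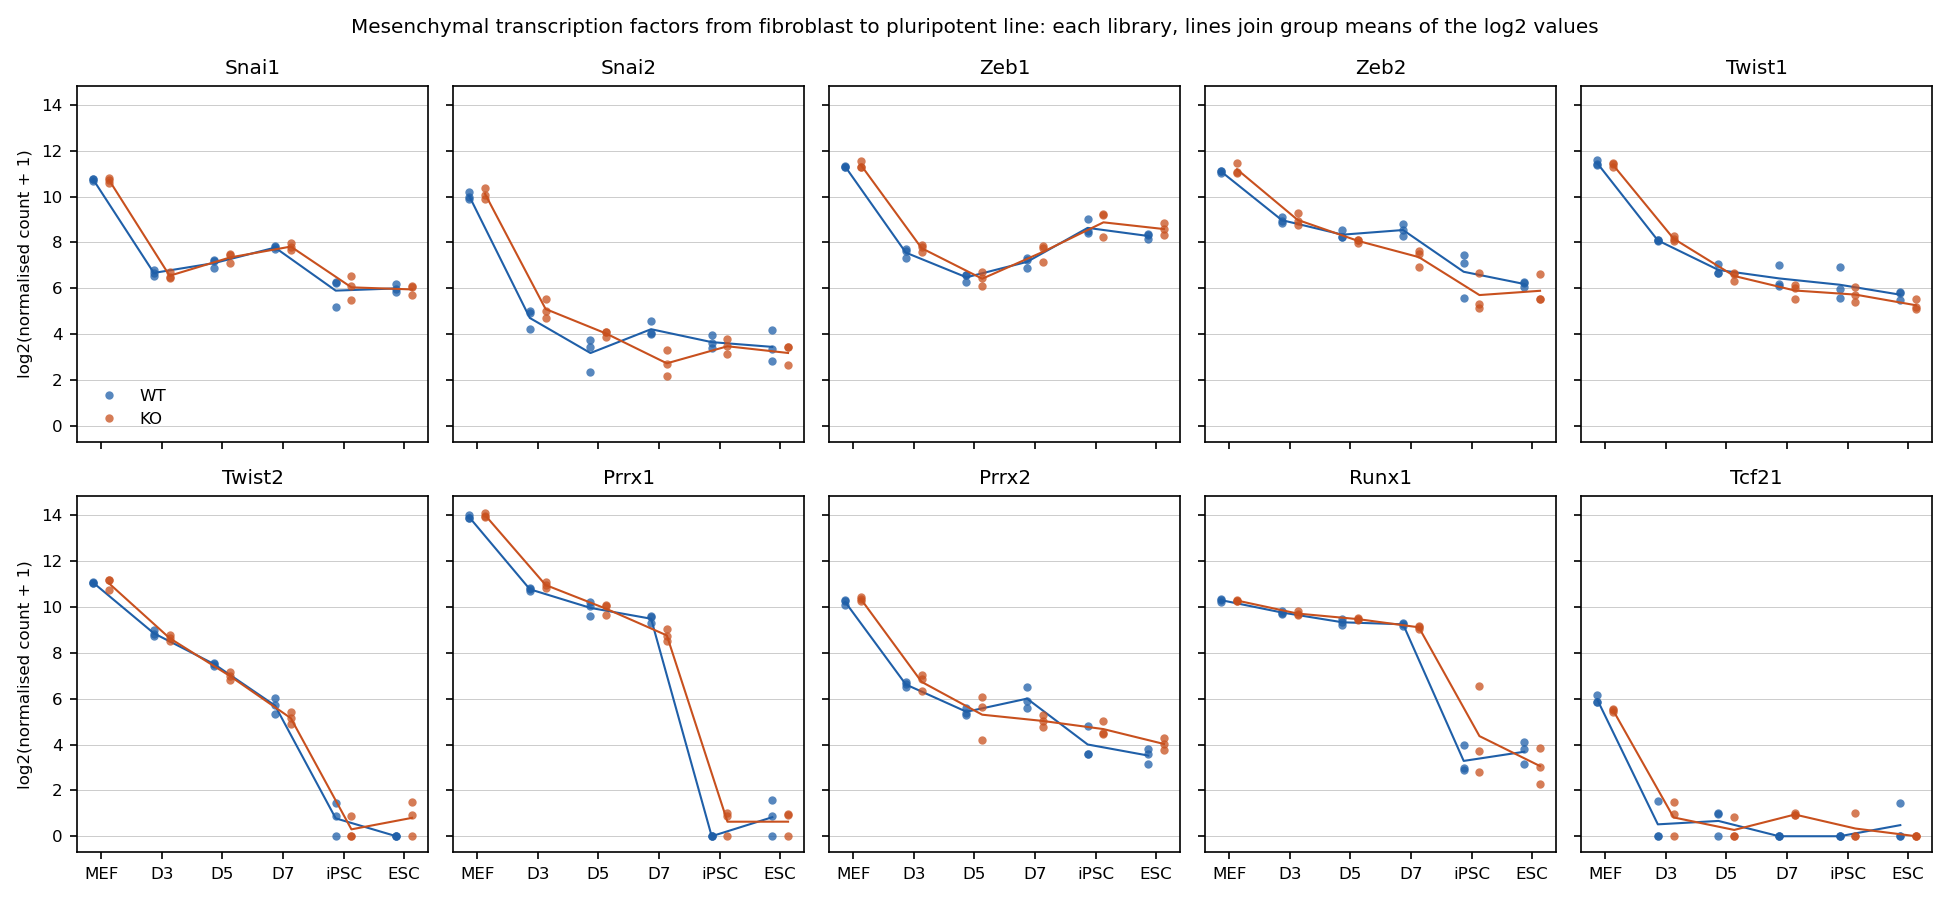
Each panel shows 1 factor, with log2 of the normalised count plus 1 on the vertical axis and the 6 stages on the horizontal axis. Points are libraries (blue WT, orange KO, 3 each) and lines join the means of the log2 values. Nearly every factor dropped between MEF and D3, Runx1 stayed high to D7, and Twist2, Prrx1 and Tcf21 ended near 0.

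To ask when the mesenchymal programme was lost, successive stages were compared in WT cells, with DEGs defined as genes with FDR < 0.05 and log2FC > |1|. Gene positions below are in GRCm38. By D3, 9 of the 10 factors were DEGs, all lower than in MEFs, against 25.4% of all genes tested that were lower and 19.5% that were higher. The median log2FC was -3.49 over the 10 factors and -0.01 over all genes tested. The KO time course gave 9 DEGs as well, all lower, where 26% of genes tested were lower. MEFs were kept in fibroblast medium, and no sorting is described for their RNA samples. D3 cells were in ESC medium with the additions given above and were sorted for mOrange. Medium, sorting and the induced factors cannot be told apart in this step. The size of the fall differed widely between factors.

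Both Snail genes fell. Snai2 (chromosome 16, 14705852 to 14709385, plus strand, 3 merged exons) had 1179, 939 and 1019.9 normalised counts in WT MEF replicates 1, 2 and 3 and 31.2, 29.0 and 17.4 at D3. This is 40.4-fold lower (log2FC -5.33 with an SE of 0.25, DESeq2 FDR 7.53e-102). Snai1 (chromosome 2, 167538195 to 167542814, plus strand, 3 merged exons), the Snail gene at the top of many mesenchymal transitions, went from 1743, 1665 and 1735 to 111, 93.0 and 99.8, which is 16.9-fold lower (log2FC -4.08 with an SE of 0.17, DESeq2 FDR 3.82e-123). In both genes every D3 library was far below every MEF library.

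The Zeb paralogues fell unequally. Zeb1 had 2530.5, 2573 and 2499 normalised counts in WT MEFs and 159, 195 and 212 at D3 (13.4-fold lower, log2FC -3.75 with an SE of 0.21, DESeq2 FDR 1.21e-67). Zeb2 (chromosome 2, 44983632 to 45117395, minus strand, 18 merged exons) had 2235, 2205 and 2101 and 458, 560.0 and 494 (4.33-fold lower, log2FC -2.11 with an SE of 0.31, DESeq2 FDR 3.51e-11). Zeb2 thus kept 23.1% of its MEF level and Zeb1 7.44%. The 95% intervals of the 2 log2FC values, -2.72 to -1.50 for Zeb2 and -4.17 to -3.33 for Zeb1, did not overlap.

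Among the helix-loop-helix genes, Twist1 (chromosome 12, 33957671 to 33959829, plus strand, 2 merged exons) kept less of its level than Twist2 (chromosome 1, 91801461 to 91848028, plus strand, 2 merged exons). Twist1 went from 3064, 2670.3 and 2732 to 276, 271 and 267 (log2FC -3.38 with an SE of 0.21, DESeq2 FDR 7.61e-58), leaving 9.62%. Twist2 went from 2177, 2090.2 and 2133 to 453, 504 and 430.3 (log2FC -2.21 with an SE of 0.13, DESeq2 FDR 1.45e-64), leaving 21.7%. Tcf21 (chromosome 10, 22817281 to 22820174, minus strand, 2 merged exons) was nearly gone at D3. It had 57.4, 57.6 and 70.0 normalised counts in WT MEFs, and its 3 D3 libraries held 2 reads together, a ratio of 95.4 with a 95% counting interval of 26.7 to 819. Such intervals cover counting error only. From D3 on, each group held 0 to 3 reads of Tcf21 in its 3 libraries.

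Both homeodomain genes fell. Prrx1 (chromosome 1, 163245119 to 163313710, minus strand, 7 merged exons) had the most reads of the 10 in MEFs, with 16319, 15114 and 15039 normalised counts, and 1779, 1801 and 1669 at D3 (log2FC -3.15 with an SE of 0.14, DESeq2 FDR 5.62e-105). Prrx2 (chromosome 2, 30834972 to 30881251, plus strand, 5 merged exons) went from 1235, 1077 and 1262 to 88.9, 100 and 104 (log2FC -3.61 with an SE of 0.26, DESeq2 FDR 1.43e-41). At D5 they had 786, 1046 and 1199 and 40.8, 38.2 and 47.9 in WT. At D3 they kept 11.3% and 8.19% of the MEF level.

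Runx1 was the exception. Runx1 (chromosome 16, 92601466 to 92826149, minus strand, 9 merged exons) had 1320.0, 1259 and 1197 normalised counts in WT MEFs, 916, 836 and 848 at D3, 708, 584 and 645 at D5 and 639, 609 and 571 at D7. Its libraries at D3 were all below those of MEFs, yet 68.9% of the level remained at D3 and 48.2% at D7. The D3 difference was -0.54 on the log2 scale (SE 0.45) and did not pass in the fit of all 36 libraries (DESeq2 FDR 0.281). That fit shares 1 estimate of spread per gene over all groups, and Runx1 ranged from 6.06 to 93.8 among KO iPSCs. Over the alternatives its FDR ran from 4.70e-07, when only MEF and D3 WT libraries were fitted, to 0.393.

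Between D3 and D5, 5 factors fell further in WT cells (Snai2, Zeb1, Twist1, Twist2 and Prrx2), where 1.84% of genes tested were DEGs in that direction. Zeb1 reached its lowest level of the series at D5, with 75.7, 96.0 and 94.7 normalised counts (log2FC -1.09 with an SE of 0.23, DESeq2 FDR 3.60e-05), although log2FC was -0.99 without D3 WT replicate 3 and -0.98 without D5 WT replicate 1, inside the fold threshold. Snai2 had 9.71, 4.13 and 12.49 (log2FC -1.56 with an SE of 0.37, DESeq2 FDR 0.000331). In KO cells 6 factors were lower by this rule (those 5 and Prrx1), against 3.51% of genes tested. In KO, Snai2 (-0.89 without D3 KO replicate 2), Prrx1 (-0.97 without D3 KO replicate 2 and -0.90 without D5 KO replicate 1) and Prrx2 (-0.92 without D5 KO replicate 1) then came inside the fold threshold, and Zeb2 came past it without D3 KO replicate 3 (-1.06). Prrx1 in WT passed the FDR at log2FC -0.79 and missed the fold threshold.

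From D5 to D7 the factors parted. In WT cells Twist2 fell (183, 185 and 173 to 63.9, 39.3 and 52.5, log2FC -1.80 with an SE of 0.18, DESeq2 FDR 6.26e-21) and Snai2 rose (9.71, 4.13 and 12.49 to 15.2, 23.2 and 15.4, log2FC 1.03 with an SE of 0.39, DESeq2 FDR 0.0384). The backgrounds were 1.07% of genes tested lower and 4.74% higher. The Snai2 rise was lost with edgeR (FDR 0.0637) and without D5 WT replicate 1 (DESeq2 FDR 0.0724), D5 WT replicate 2 (FDR 0.242) or D7 WT replicate 2 (FDR 0.209). Snai1 had its lowest WT mean of the reprogramming days at D3, going from 111, 93.0 and 99.8 at D3 to 116, 147 and 149 at D5 and 223, 206 and 226 at D7 in WT. From D5 to D7 this passed the FDR but not the fold threshold (WT log2FC 0.67 with an SE of 0.18, DESeq2 FDR 0.00124). At D7 Snai1 had the highest level per kb of the 10 factors, at 135 ± 6.60 in WT and 139 ± 15.1 in KO, and its libraries did not overlap those of the next factor in either genotype.

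In KO cells 4 factors were DEGs from D5 to D7. Snai2 (16.2, 13.6 and 16.2 to 9.04, 3.50 and 5.45, log2FC -1.39 with an SE of 0.43, DESeq2 FDR 0.00415), Twist2 (log2FC -1.86 with an SE of 0.20, DESeq2 FDR 6.72e-20) and Prrx1 (log2FC -1.16 with an SE of 0.15, DESeq2 FDR 1.39e-13) fell, against 5.34% of genes tested. Zeb1 rose from 67.7, 87.1 and 103 to 229.9, 217 and 141 (log2FC 1.19 with an SE of 0.23, DESeq2 FDR 1.64e-06), against 8.84% higher. Snai2 therefore went in opposite directions in WT and KO cells over these days, and the test of that difference is given below. The KO fall of Snai2 was lost without D7 KO replicate 2 (DESeq2 FDR 0.0521). With only the 2 groups compared fitted, the FDR of Snai2 was 0.233 in WT and 0.0828 in KO.

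From D7 to WT iPSCs, 6 factors fell (Snai1, Zeb2, Twist2, Prrx1, Prrx2 and Runx1, against 25% of genes tested) and Zeb1 rose (against 20%). In KO the fallers were Snai1, Zeb2, Twist2, Prrx1 and Runx1 (against 19.8%) and Zeb1 again rose (against 19%). Prrx1 had 0 reads in all 3 WT iPSC libraries. Set against a floor of 3 reads in each library, this is at least 272-fold lower than at D7 and at least 5839.8-fold lower than in MEFs. Twist2 had 3 reads in total in WT iPSCs, a ratio of 60.2 to D7 (95% counting interval 19.7 to 288), and 0 in WT ESCs, at least 739.6-fold below MEFs. Runx1 fell 64.9-fold, from 639, 609 and 571 to 6.91, 14.6 and 6.49 (log2FC -6.02 with an SE of 0.51, DESeq2 FDR 1.03e-30). The level in the lines was thus far below the 48.2% of the MEF level still present at D7.

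Zeb1 was higher in the pluripotent lines than at D7 and far below MEFs. Zeb1 had 359, 518 and 336 normalised counts in WT iPSCs (log2FC 1.504 with an SE of 0.22, DESeq2 FDR 2.38e-11) and 287, 319 and 327 in WT ESCs, which is 16.0% and 12.3% of the MEF level. Per kb, Twist1 (46.8 ± 23.6), Zeb1 (39.4 ± 9.67) and Snai1 (38.3 ± 14.3) led in WT iPSCs with overlapping libraries, and the next factor, Prrx2, stood at 8.35 ± 4.59. The same 3 led in WT ESCs. All 10 factors were lower in WT ESCs than in WT MEFs, against 29.4% of genes tested. WT ESCs and WT iPSCs gave 0 DEGs among the 10, against 0.275% of genes tested, and 0 with edgeR. At an unadjusted p under 0.05 there were 2, Zeb2 and Twist1, both lower in ESCs. Without iPS WT replicate 3, Zeb2 was a DEG (-1.11 on the log2 scale, DESeq2 FDR 0.00512).

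The effect of the KO was then tested at each stage, counting factors with FDR < 0.05. In MEFs, where 0.0428% of genes tested passed, and at D3, where 0.493% passed, 0 of the 10 did. At these stages 0 had an unadjusted p below 0.05, and edgeR called 0 too. Tcf21 had too few reads at D3, at D5 and in ESCs for an adjusted value. At D5, where 7.15% of genes tested passed, Twist2 alone was called. At D7, where 29.4% passed, 5 factors were called and all were lower in KO (16.1% of genes tested were lower and 13.3% higher). The iPSCs gave 2 calls (16.3% of genes tested) and the ESCs 0 (10.1% of genes tested), where 0 had an unadjusted p below 0.05 and edgeR called 0.

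**Figure D2:**
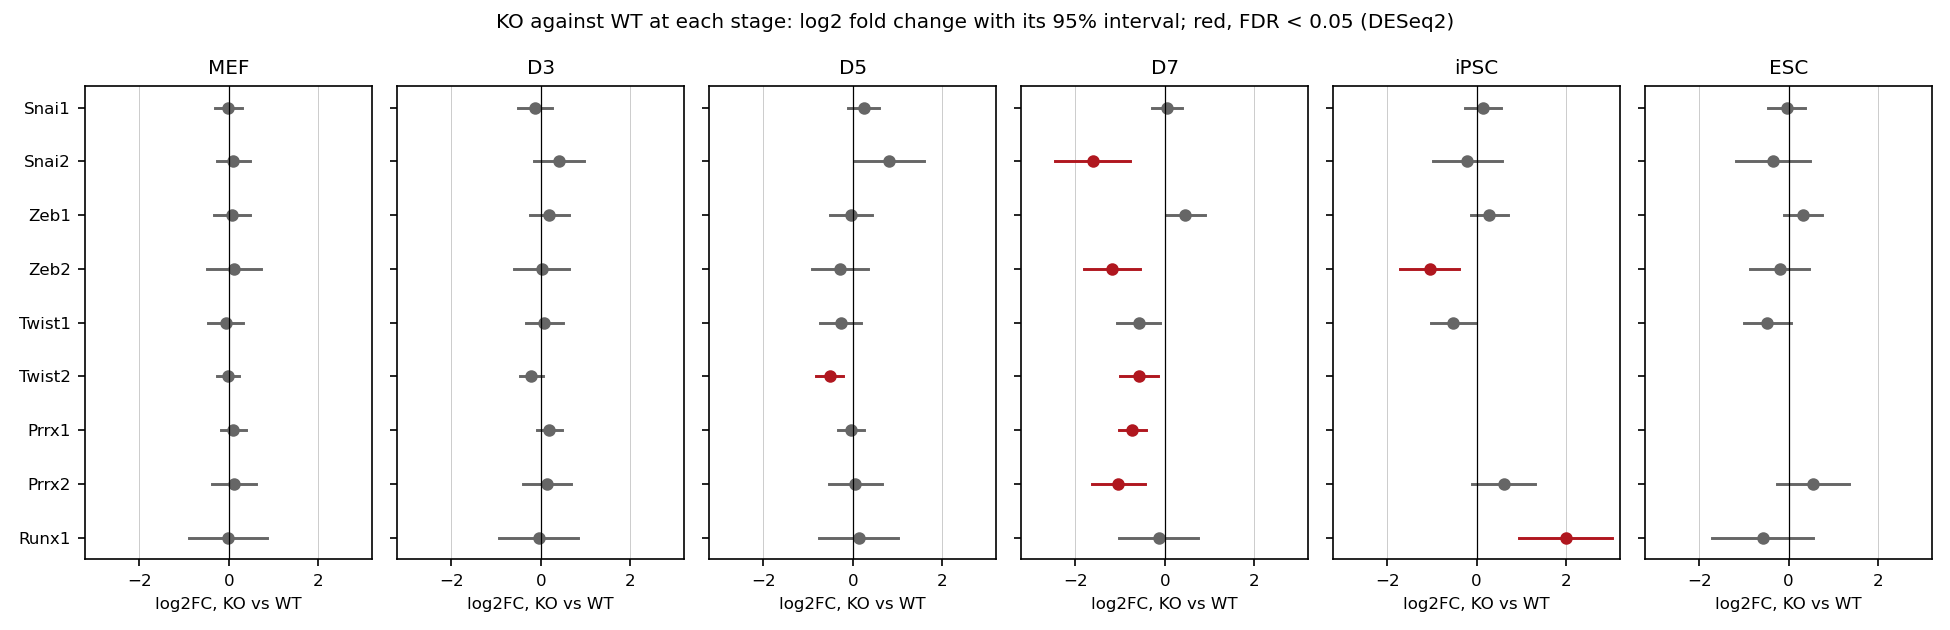
Points give the log2FC of KO over WT for 9 factors at each stage and lines its 95% interval, red where the DESeq2 FDR was below 0.05. Tcf21, and Twist2 and Prrx1 in iPSCs and ESCs, are left out because they had few or no reads. Intervals centre near 0 in MEFs and at D3. At D7 the whole interval lies below 0 for 6 factors, of which 5 (all but Twist1) were called. The D7 interval of Zeb1, which was not called, lies wholly above 0 (0.02 to 0.90).

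In MEFs the largest log2FC was that of Tcf21, with 57.4, 57.6 and 70.0 normalised counts in WT and 46.0, 44.8 and 42.4 in KO. The libraries did not overlap, but the difference did not pass (log2FC -0.48 with an SE of 0.42, DESeq2 FDR 0.815). For the other 9 factors log2FC lay between -0.07 and 0.12, and the widest 95% interval, that of Runx1, ran from -0.89 to 0.86. That interval uses the spread shared over all groups, while the Runx1 levels in MEFs were 1259 ± 61.4 in WT and 1243 ± 11.5 in KO.

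Twist2 was the factor called at D5. At D5 it had 183, 185 and 173 normalised counts in WT and 142, 110.2 and 126 in KO, so all KO libraries lay below all WT libraries (log2FC -0.51 with an SE of 0.15, DESeq2 FDR 0.0179). The call was lost with edgeR (FDR 0.0723) and without D5 WT replicate 1 (DESeq2 FDR 0.0612), D5 WT replicate 2 (FDR 0.0751), D5 KO replicate 2 (FDR 0.15) or D5 KO replicate 3 (FDR 0.0659). At D7 the values were 63.9, 39.3 and 52.5 in WT and 41.2, 28.9 and 34.5 in KO, with overlapping libraries (log2FC -0.58 with an SE of 0.22, DESeq2 FDR 0.0281). This call too was lost with edgeR (FDR 0.0517), without D7 WT replicate 1 (DESeq2 FDR 0.238) or 3 (FDR 0.0683) and without D7 KO replicate 2 (FDR 0.164) or 3 (FDR 0.0658). Fitted on the D7 libraries alone, Twist2 had an FDR of 0.259. The antisense overlap given above applies at both stages.

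At D7 the homeodomain genes were lower in KO. Prrx1 had 624, 779 and 758 normalised counts in WT replicates 1, 2 and 3 and 519, 431 and 362 in KO. Every KO library lay under the lowest WT library (log2FC -0.72 with an SE of 0.15, DESeq2 FDR 2.02e-05), and this call held under every alternative tried, with FDR up to 0.00136. Prrx2 had 47.7, 89.6 and 58.6 and 38.2, 31.5 and 26.3, again without overlap (log2FC -1.03 with an SE of 0.31, DESeq2 FDR 0.00408). The Prrx2 call rested partly on D7 WT replicate 2, the highest library, without which log2FC was -0.74 (DESeq2 FDR 0.0802).

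Of the repressors, Snai2 and Zeb2 were lower in KO at D7 while their paralogues did not pass the test. Snai2 had 15.2, 23.2 and 15.4 in WT and 9.04, 3.50 and 5.45 in KO (log2FC -1.61 with an SE of 0.43, DESeq2 FDR 0.00119). These were 53 raw reads in the 3 WT libraries and 19 in the 3 KO libraries, and with only the D7 libraries fitted the FDR was 0.0611. Zeb2 had 306, 377 and 447 and 182, 121 and 199 (log2FC -1.17 with an SE of 0.32, DESeq2 FDR 0.00154), a call that held under every alternative tried with FDR up to 0.0258. Snai2, Zeb2 and Prrx2 also passed the fold threshold, against 4.42% of genes tested that were DEGs lower in KO.

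Snai1 had 223, 206 and 226 in WT and 253, 219.7 and 205 in KO, with a 95% interval of the log2FC of -0.28 to 0.38. Zeb1 had 119, 159 and 150.2 and 229.9, 217 and 141 (log2FC 0.46 with an SE of 0.22, DESeq2 FDR 0.114). KO replicates 1 and 2 of Zeb1 lay above all WT libraries and KO replicate 3 among them, and without D7 KO replicate 3 the higher level in KO passed (DESeq2 FDR 0.0274). Runx1 had 639, 609 and 571 and 571, 527 and 561, with an interval of -1.01 to 0.74. Of these 3 factors, Snai1 had the narrowest interval and Runx1 the widest. The Runx1 interval uses the spread shared over all groups, given above. Its D7 libraries were themselves close, at 606 ± 34.1 in WT and 553 ± 23.2 in KO.

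Twist1 stood at the threshold. It had 68.0, 129 and 71.0 normalised counts in WT and 64.3, 70.0 and 45.4 in KO (log2FC -0.58 with an SE of 0.24, DESeq2 FDR 0.0588). Same-numbered WT and KO libraries at D7 varied together, and with the replicate number as a block the difference passed (FDR 0.0494, or 0.019 with the block inside each stage). It also passed without D7 WT replicate 1 (FDR 0.0239), D7 WT replicate 3 (FDR 0.0341) or D7 KO replicate 2 (FDR 0.0469). Tcf21 had 0 reads in WT and 3 in KO, both at or under the floor, and no fold is given. Over the 10 factors, Tcf21 included, the median log2FC at D7 was -0.58, and over all genes tested it was -0.04. Fibroblast markers moved with these factors, their sum being 19738 to 27430.5 in WT and 6488 to 16556 in KO. Of the 6, 5 had an FDR, 3 were lower (Dcn, Thy1, Col1a1) and none was at 0. The pluripotency sum was 5022 to 8861 in WT and 23545 to 31174 in KO, with all 6 higher. Endothelial markers summed to 1538 to 1941 in WT and 3753 to 3781 in KO (2 of 6 higher), blood markers to 571 to 769.6 and 1064 to 1237 (1 of 6 higher), neural markers to 11062 to 12569.8 and 6343 to 7785 (1 of 6 lower) and the 3 muscle markers measured to 98.4 to 264 and 85.8 to 92.4 (1 of 3 lower). Of all genes tested, 13.3% were higher and 16.1% lower. Single genes made up much of these sums: in KO Tie1 was 71.4% of the endothelial and Laptm5 57.9% of the blood sum, and in WT Tubb3 was 72.6% of the neural sum. Laptm5 and Pecam1 were the largest blood and endothelial markers in WT iPSCs too (means 2679 and 1232), so these sums do not measure such cells. The part of these markers in the members' differences was not tested.

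Whether the KO effect changed with time was tested directly, as the log2FC at one stage minus that at another. Between D5 and D7 the effect changed for Snai2 and Prrx1 (5.84% of genes tested changed). For Snai2 it went from 0.81 at D5 to -1.61 at D7, a change of -2.42 (SE 0.58, DESeq2 FDR 0.0021). At D5 Snai2 had 9.71, 4.13 and 12.49 in WT and 16.2, 13.6 and 16.2 in KO, so KO libraries were all above WT at D5 and all below at D7. With only the D5 and D7 libraries fitted the change was -2.37, with no adjusted FDR. For Prrx1 the change was -0.68 (DESeq2 FDR 0.0294), lost with edgeR (FDR 0.0825). It was also lost, with DESeq2 FDR from 0.053 to 0.12, without any 1 of the 12 libraries other than D5 WT replicate 3, D5 KO replicate 1 and replicate 1 of either D7 group.

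Against D3, the D7 effect differed for Snai2 (-2.02, DESeq2 FDR 0.00203), Prrx1 (-0.91, FDR 0.000487) and Prrx2 (-1.18, FDR 0.0356), where 13% of genes tested did. The Prrx2 difference was lost with edgeR (FDR 0.0835) and with the replicate block (DESeq2 FDR 0.0504). It was also lost, with DESeq2 FDR from 0.0505 to 0.159, without any 1 of the 12 libraries other than D3 KO replicate 3 and replicate 1 of either D7 group. Zeb2 missed (-1.20, FDR 0.0542) and passed with the block inside each stage (FDR 0.00292), with only the groups compared (FDR 0.000125) and without D7 WT replicate 1 (FDR 0.0495) or D7 KO replicate 3 (FDR 0.0416). Its D7 minus D5 difference passed with only the groups compared (-0.85, FDR 0.00762). Between D7 and D5, Prrx2 passed without D5 KO replicate 1 (FDR 0.00419). The effects at D3 and MEF, at D5 and D3, and in iPSCs and ESCs differed for 0 members, against 0.112%, 0.064% and 1.47% of genes tested. In the same order, 0, 0 and 1 of the 10 had an unadjusted p below 0.05, the last being Runx1, and edgeR gave 0 in each. Runx1 passed in iPSCs against ESCs without iPS WT replicate 2, iPS KO replicate 2 or 3, ESC WT replicate 3 or ESC KO replicate 1 (DESeq2 FDR 7.43e-05 to 0.0436), and Zeb2 without iPS KO replicate 2 (FDR 0.04).

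The balance of the Zeb paralogues was followed as a ratio within each library. At D7 the log2 ratio of Zeb1 to Zeb2 normalised counts was -1.37, -1.24 and -1.57 in WT replicates 1, 2 and 3 and 0.34, 0.85 and -0.50 in KO. Every KO library lay over the highest WT one, and the means differed by 1.62 (two-sided exact permutation p 0.1, the smallest that 3 against 3 libraries allow). At D5 the ratio was -2.01, -1.65 and -1.96 in WT and -2.04, -1.53 and -1.41 in KO, with overlap (exact permutation p 0.4). In MEFs it lay between 0.08 and 0.25 in both genotypes, and in iPSCs and ESCs it was above 1 in all 12 libraries. KO cells at D7 thus lay above WT D7 cells and below the pluripotent lines on this measure. Their mean of 0.23 was also close to the MEF means of 0.22 in WT and 0.18 in KO. The ratio fell from MEFs to D5 and rose afterwards, so it does not place cells along the course. The measure was chosen after the values were seen.

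**Figure D3:**
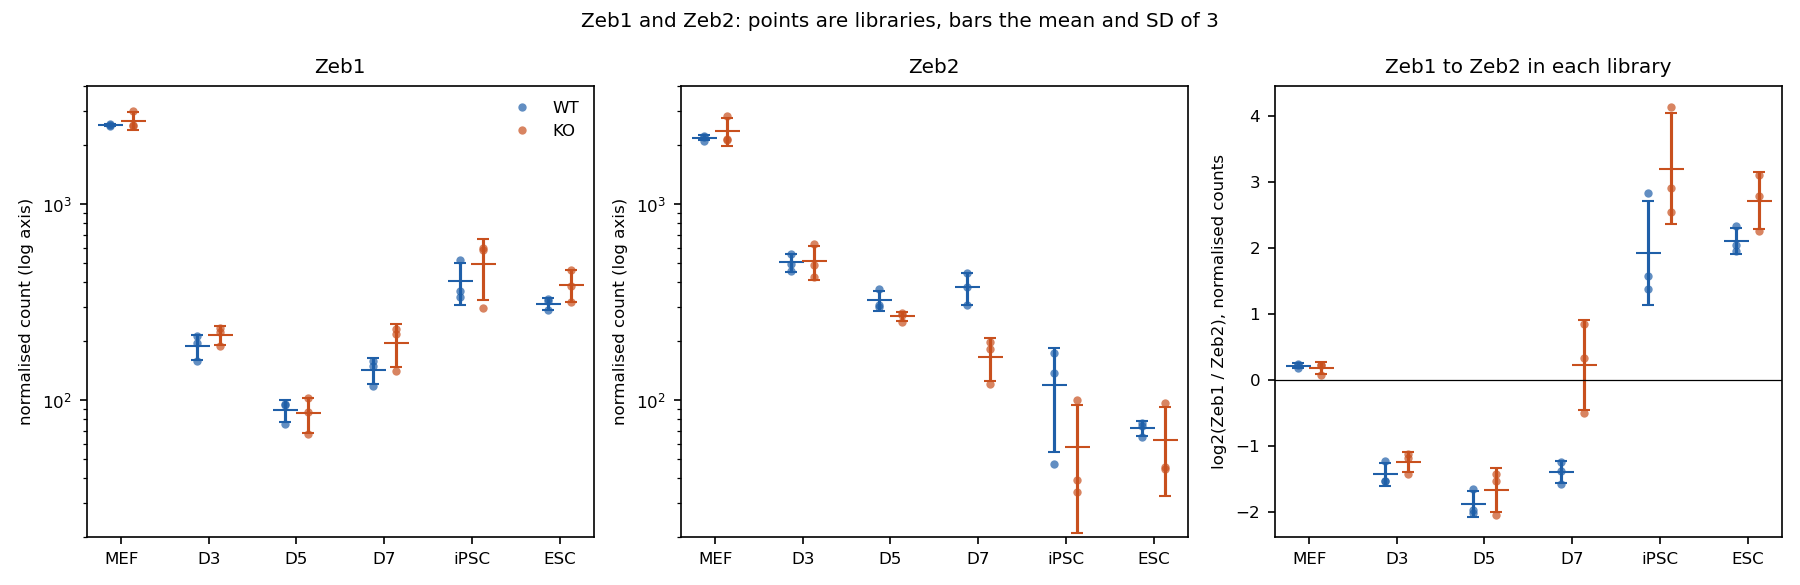
Left and middle, normalised counts of Zeb1 and Zeb2 on a log axis by stage. Right, the log2 ratio of Zeb1 to Zeb2 in each library. Points are libraries (blue WT, orange KO) and bars the mean and SD of 3. Zeb1 was lowest at D5, Zeb2 was lower in KO than in WT at D7, and the D7 ratio was -0.50 or higher in all KO libraries and -1.24 or lower in all WT libraries.

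In iPSC clones both calls depended on which libraries were included. Zeb2 had 138, 174 and 47.3 in WT and 33.9, 99.8 and 39.4 in KO (log2FC -1.05 with an SE of 0.33, DESeq2 FDR 0.0157), with overlapping libraries. Its call was lost without iPS WT replicate 1 (DESeq2 FDR 0.0606) or 2 (FDR 0.235), without iPS KO replicate 1 (FDR 0.163) or 3 (FDR 0.103), and with only the 6 iPSC libraries fitted (FDR 0.337). Runx1 had 6.91, 14.6 and 6.49 in WT and 93.8, 12.2 and 6.06 in KO (log2FC 1.99 with an SE of 0.53, DESeq2 FDR 0.00276), so KO replicate 1 alone was high. Without that clone the log2FC was -0.01 (DESeq2 FDR 1). The fibroblast marker sum in this clone was 471, against 92.9 and 151 in the other KO clones, with Pdgfra the largest. The 6 blood markers summed to 3955, 3453 and 2705 in KO clones 1, 2 and 3, most of it Laptm5. Their part in the Runx1 level was not tested. With only the 6 iPSC libraries fitted, the Runx1 FDR was 0.29. Among factors not called, Zeb1 passed without iPS KO replicate 3 (DESeq2 FDR 0.0308), Twist1 without iPS WT replicate 3 (FDR 0.0173) and Prrx2 without iPS WT replicate 1 (FDR 0.0315).

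In ESCs Zeb1 had 287, 319 and 327 in WT and 461, 384 and 317 in KO, Zeb2 74.3, 76.9 and 65.1 and 96.9, 44.8 and 45.8, and Twist1 55.2, 44.5 and 56.5 and 33.2, 44.8 and 35.0. Their log2FC values of 0.32, -0.20 and -0.47 had DESeq2 FDR of 0.382, 0.779 and 0.272. The intervals still allowed differences of -0.10 to 0.74, -0.87 to 0.46 and -0.99 to 0.05.

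Genes around these factors were read from 4 lists at D7, with the 4 lowest FDR values of each named. Of 20 partners and relatives, 5 were higher and 4 lower in KO, beside 13.3% higher and 16.1% lower among all genes tested at D7, with a median log2FC of 0.09. Tcf15, a helix-loop-helix factor of somites, had 43.6, 81.6 and 48.4 normalised counts in WT and 229.9, 281 and 255 in KO (log2FC 2.14 with an SE of 0.31, DESeq2 FDR 2.05e-10). The corepressor gene Ctbp2, whose protein works with Zeb factors, was higher (log2FC 0.51 with an SE of 0.08, DESeq2 FDR 4.23e-08), as was the E protein gene Tcf3 (log2FC 0.33 with an SE of 0.10, DESeq2 FDR 0.00446). Runx2, the Runx factor of bone, was lower, with 71.0, 79.5 and 108 in WT and 37.2, 42.0 and 51.7 in KO (log2FC -0.98 with an SE of 0.20, DESeq2 FDR 1.72e-05). Runx2 and Runx1 of the same family thus had different calls, but that difference was not tested.

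Transforming growth factor beta (TGF-beta) signalling induces Snail and Zeb genes in many cells. Of its 18 listed genes 7 were lower and 1 higher in KO at D7, beside the same 16.1% and 13.3% of all genes, with a median of -0.33 (the lists, like the members, were chosen with results of these data known). The ligand gene Tgfb2 had 121, 159 and 239 in WT and 55.2, 65.7 and 73.5 in KO (log2FC -1.41 with an SE of 0.21, DESeq2 FDR 1.00e-09). Tgfb3 (log2FC -0.59 with an SE of 0.13, DESeq2 FDR 8.03e-05) and the activin subunit gene Inhba (log2FC -1.29 with an SE of 0.30, DESeq2 FDR 0.000156) were lower as well. Smad7, an inhibitor of the pathway, was the gene that was higher (log2FC 0.85 with an SE of 0.19, DESeq2 FDR 0.000126).

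Structural genes were read from the remaining lists. Of 20 mesenchymal effectors, 19 had an FDR (Pdgfra had none). Of these, 8 were lower and 2 higher, beside 16.1% and 13.3% of all genes, and the list median was -0.82. The matrix gene Fbn1 had 12826, 13642 and 15833 in WT and 4599, 3955 and 5433 in KO (log2FC -1.60 with an SE of 0.19, DESeq2 FDR 1.79e-15). Col5a1 (log2FC -1.02 with an SE of 0.17, DESeq2 FDR 3.87e-08), the N-cadherin gene Cdh2 (592 ± 104 in WT and 296 ± 29.6 in KO, DESeq2 FDR 8.75e-06) and Col1a1 (log2FC -1.25 with an SE of 0.41, DESeq2 FDR 0.0107) were also lower, and the 2 higher were Fn1 and S100a4, named because the count is small. Of 20 epithelial genes 3 were higher and 3 lower, a share near that of all genes, with a median of 0.10. The keratin gene Krt18 had 458, 616 and 548 in WT and 2093, 2322 and 1716 in KO (log2FC 1.92 with an SE of 0.51, DESeq2 FDR 0.00133), and Grhl2, an activator of epithelial genes, was higher (log2FC 1.24 with an SE of 0.33, DESeq2 FDR 0.00121). The claudin gene Cldn3 (log2FC -1.14 with an SE of 0.33, DESeq2 FDR 0.00397) and Ovol1 (log2FC -0.52 with an SE of 0.13, DESeq2 FDR 0.000608), a repressor of mesenchymal genes, were lower. The median over all genes tested was -0.04. From D5 to D7 in WT, 3 effectors were DEGs higher (Fn1, Postn and Pdgfrb) and 0 lower, against 4.74% and 1.07% of genes tested (list median 0.55). In KO 1 was higher and 2 lower, against 8.84% and 5.34% (list median 0.04). The median of the fibroblast markers over these days was 0.70 in WT, with 0 DEGs, and -0.16 in KO, with 1 DEG (Dcn, lower).

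**Figure D4:**
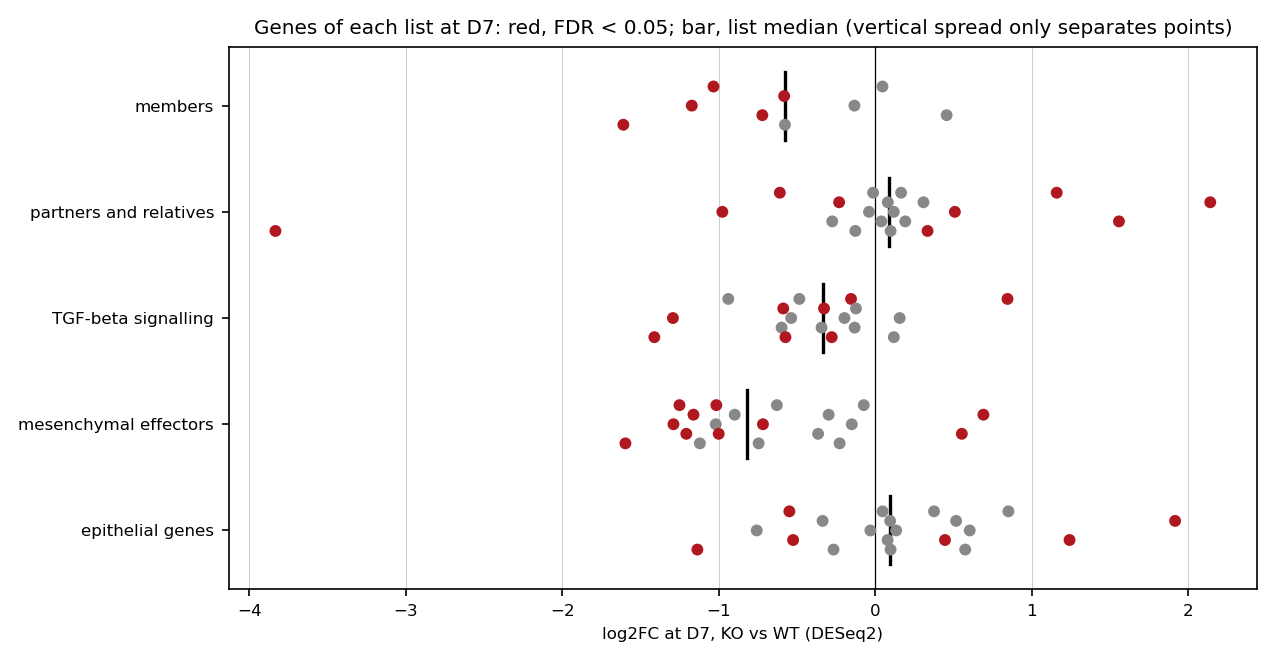
Each point is a gene, placed by its log2FC of KO over WT at D7, red where the DESeq2 FDR was below 0.05, with a bar at the list median. The vertical spread has no meaning. Medians were -0.58 for the 10 factors (Tcf21, at or under the floor, is counted but not drawn), -0.82 for mesenchymal effectors, -0.33 for TGF-beta signalling, 0.09 for partners and 0.10 for epithelial genes.

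In the earlier step from MEF to D3 the same lists were counted in WT cells. Of the 20 mesenchymal effectors (19 with an FDR) 18 were DEGs lower at D3, and of the 18 TGF-beta genes 14 were lower. Of the 20 epithelial genes 15 were higher and 3 lower, against the 25.4% lower and 19.5% higher given above. The 3 epithelial genes that fell were Krt18, Krt19 and Cldn6. Of the partners, 2 were higher and 9 lower. List medians were -3.35 for mesenchymal effectors, -2.05 for TGF-beta genes, -1.04 for partners and 4.83 for epithelial genes, beside -0.01 over all genes tested.

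The genes most alike in course to each factor were found by Pearson correlation of log2 mean normalised counts plus 1 over the 12 groups, among 16743 genes. The groups share stages, so this is a description. Twist1 was most like Gpc4 (r = 0.997), Twist2 like Pafah1b2 (0.997), Prrx1 like Ehd2 (0.998), Prrx2 like Plekho2 (0.995) and Runx1 like Lrrk1 (0.997). Snai1 was closest to Fam131a (0.994), Snai2 to Matn2 (0.991), Zeb1 to Gys1 (0.994), Zeb2 to Olfr1033 (0.996) and Tcf21 to Ugt1a8 (0.993). Within families the same measure over 12 groups was 0.886 for the Snail pair, 0.835 for the Twist pair, 0.831 for the Prrx pair and 0.457 for the Zeb pair. Twist2 was closer to Prrx1 (0.981) than to its paralogue. Twist2 and Prrx1 each had 0 to 3 reads per group in iPSCs and ESCs, unlike Twist1, and such low values weigh on r. Tcf21 had so few reads outside MEFs that its r reflects MEFs against all later groups.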

How the data were processed

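RNA was sequenced as 75-base single-end reads from a stranded kit. Per the labels and the study's methods, the authors trimmed reads with Cutadapt after FastQC, aligned them to GRCm38 with STAR and counted reads per gene with Rsubread. The deposited counts are whole reads per gene. The strand setting of the counting is not given in the sources used here. The authors also deposited normalised counts, a signal obtained by dividing counts by DESeq2 size factors, and recomputing them from the counts gave the same values to within 4.98e-15 in relative terms. The authors' columns of fold changes and p-values and a batch-corrected log matrix were not used.

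All 36 libraries (19224103 to 39610939 reads) entered 1 DESeq2 fit (version 1.42.0, R 4.3.3) of the deposited counts with 12 groups as a single factor, as in the study. This count model was the main test because the study used it, and edgeR's quasi-likelihood test (version 4.0.16) was run as an alternative. Contrasts compared KO with WT, successive stages, and KO effects between stages. P-values were adjusted over all genes tested by the Benjamini-Hochberg method (FDR). DEGs had FDR < 0.05 and log2FC > |1|. Confidence intervals are at 95%. A count of 0 was set at 3 reads per library (2.31 to 5.22 normalised counts) where a fold needed a bound. The code was tested on simulated data.

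The members and the lists (partners, TGF-beta signalling, mesenchymal effectors, epithelial genes, and fibroblast, pluripotency, blood, endothelial, muscle and neural markers) were chosen with earlier results of these data known. Named genes were all members, the 4 genes of each pathway list with the lowest FDR at D7, and the gene most alike in course to each member (among genes with a mean of at least 50 in at least 1 group). Alternatives were edgeR with TMM, a filter on low counts, only the groups compared, the replicate number as a block, leaving out each library in turn, and transcript length. A block inside each stage was added after seeing the data. The labels give replicate numbers 1 to 3 in every group. Deviations of same-numbered WT and KO libraries from their group means correlated over 14637 genes at 0.101 to 0.456 at D3 and 0.172 to 0.392 at D7, above 0.1 in every pair, so the numbers were taken to pair libraries there. The correlations were 0.0897 to 0.268 at D5, and some were below 0 in MEFs, iPSCs and ESCs. Every pair of replicates differed by more than sampling noise.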

Additional observations from a re-analysis of the deposited data

Results flagged for a closer look

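In 5 cases the effect of the KO on a member differed between stages by a test of the difference itself (DESeq2 interaction, log2FC of KO over WT at the later stage minus that at the earlier). For Snai2 the effect at D7 minus that at D5 was -2.42 (SE 0.58, FDR 0.0021) and that at D7 minus D3 was -2.02 (SE 0.51, FDR 0.00203). Snai2 rests on 19 to 115 raw reads per group of 3 libraries at these stages. For Prrx1 the difference was -0.675 between D7 and D5 (SE 0.21, FDR 0.0294) and -0.91 between D7 and D3 (SE 0.21, FDR 0.000487). For Prrx2 it was -1.18 between D7 and D3 (SE 0.41, FDR 0.0356). With only the groups compared, the Snai2 difference between D7 and D5 was -2.37 and had no adjusted FDR. The smaller Prrx1 difference and that of Prrx2 were lost in several alternatives, given with them above.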

How the results depend on the processing

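Over 2698 alternative values for single members, 2537 kept the direction and the side of the threshold. Of the rest, 53 lost a call, 23 gained one and 84 changed sign without a call. The remaining 1, Runx1 in iPSCs, lost its call at a log2FC near 0. With edgeR the number of members called was 0 for KO against WT at D5 (1 by DESeq2), 4 at D7 (5), 2 for the KO effect at D7 against D3 (3), 1 for WT D7 against D5 (2 by DESeq2) and 1 for the KO effect at D7 against D5 (2 by DESeq2). With only the groups compared it was 3 for KO against WT at D7 (5 in the fit of all libraries), 0 in iPSCs (2) and 1 for WT D7 against D5 (2). In those fits Snai2 was also lost for KO D7 against D5 (DESeq2 FDR 0.0828). Zeb2 was gained for the KO effect at D7 against D3 (FDR 0.000125) and against D5 (FDR 0.00762), where Snai2 had no adjusted FDR. Leaving out 1 library in turn gave 0 to 1 for KO against WT at D5, 4 to 5 at D7 and 0 to 3 in iPSCs. Between stages it gave 4 to 7 for KO D5 against D3, 3 to 4 for KO D7 against D5, 4 to 5 for WT D5 against D3, 1 to 2 for WT D7 against D5 and 0 to 1 for WT ESC against iPSC. For the KO effect it gave 2 to 4 at D7 against D3, 1 to 3 at D7 against D5 and 0 to 2 in iPSCs against ESCs. The Runx1 difference in iPSCs was lost without iPS KO replicate 1, where its log2FC was -0.013. Its log2FC ran from -0.013 to 2.48 as 1 iPSC library was left out in turn. The causes of these changes were not tested. With the replicate block, Twist1 at D7 was gained (FDR 0.0494) and the Prrx2 difference between D7 and D3 was lost (FDR 0.0504), and within stage blocks gained Twist1 (FDR 0.019) and the Zeb2 difference between D7 and D3 (FDR 0.00292). The block changed no other call. TMM scaling moved the median log2FC of all genes in WT ESC against MEF by 0.11, in DESeq2 and in edgeR, and all 10 members remained lower. A filter on low counts removed Tcf21, which then had no value. With the longest transcript as length, the place of a member in the order per kb changed in 44 of 120 cases. Snai2 and Tcf21 have too few reads after D3 for small differences to be detectable at this depth.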

Other observations

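Other mesenchymal genes differed between KO and WT in the pluripotent lines, where the 10 factors were mostly at low levels. Of 20 mesenchymal effectors, 19 had an FDR in iPSCs and in ESCs. In iPSCs 4 were higher in KO and 1, Cdh2, lower, beside 9.72% higher and 6.63% lower among all genes tested. In ESCs 3 were higher and 2 lower, beside 5.82% and 4.29%. Of those higher in iPSCs, Col1a2 had 2.59, 0 and 3.71 normalised counts in WT and 7.99, 4.34 and 58.6 in KO, so KO replicate 3 was high. The fibroblast marker sum was 471 in KO replicate 1, against 92.9 and 151 in the other KO clones, and the part of either library in these counts was not tested. Cdh2 had 159.8, 355 and 285 normalised counts in WT iPSCs and 136, 184 and 73.7 in KO (log2FC -1.02 with an SE of 0.21, DESeq2 FDR 5.88e-05), and 292, 299.6 and 289 in WT ESCs and 139, 111 and 107 in KO (log2FC -1.30 with an SE of 0.21, DESeq2 FDR 1.99e-07). It was thus lower in KO at D7, in iPSCs and in ESCs. Of the partner genes, Id1 and Id2, whose proteins hold E proteins away from Twist factors, were lower in KO in both iPSCs and ESCs. Of the TGF-beta genes, Acvr1b, an activin receptor gene, was the 1 called in ESCs, where it was higher in KO. Of 20 epithelial genes 4 were higher and 1 lower in KO iPSCs. Krt18, 1 of the 4, had 148, 87.0 and 173 in WT and 207, 109 and 851 in KO, with overlapping libraries and KO replicate 3 high. The genes here outside the 4 of each list with the lowest FDR at D7 were chosen after their values were seen.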
